A study of Rattus norvegicus with 12 samples.

Results

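The 46 genes described here carry the symbols of proteasome subunits, regulators and assembly chaperones, and were measured in 12 male Fischer 344 rats, in RNA of the bladder body, each animal on an array of its own. A gene was taken when its symbol, reached through the RefSeq accession of its probe, began with Psma, Psmb, Psmc, Psmd, Psme, Psmf or Psmg followed by a number, and when a probe of it was marked well above background throughout 1 group or more. The brightest such probe stood for the gene. All 46 genes of this spelling with a named probe passed, and each was well above background on all 12 arrays, out of 20425 features tested (12036 genes with a symbol and, for the rest, probes that kept the name in the files). Of the 46, 44 are known subunits, regulators or chaperones, while Psmc3ip and Psme3ip1 share the spelling alone. Psmb11, Psmd11, Psmg1 and Psmg3 are not analysed here.

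Each of the 3 groups held 4 animals, and the labels name no genetic change and no drug. Old restricted rats were 25 to 28 months of age and had received food on 3 days of each week since they were 6 weeks old, and ate about 40% less per the labels. Old freely fed rats were 25 to 28 months of age, and young freely fed rats, called young below, were 6 months of age. The time between the last meal and sampling is not given in the sources used here. The study compared age, and restriction within old age, in a tissue that holds smooth muscle, urothelium, vessels and immune cells together. The uroplakin genes Upk1a, Upk2 and Upk3a, which mark urothelium, and the smooth muscle gene Myh11 were well above background on all 12 arrays. In such bulk samples, fewer cells of a type and less RNA per cell cannot be told apart. The p-values below measure the spread between animals within these groups.

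The arrays of old restricted rats lay alone on slide 2 and were read in scan 2, so that restriction and slide cannot be told apart. The arrays of old freely fed and young rats shared slide 1 and scan 1 but lay in different rows, so age and array row cannot be told apart either. Old freely fed replicate 2 stood apart on the first principal component of all features, at 51.9, where the rest of its group had 7.27 to 13.7. Old restricted replicate 3 was at 18.99, where the rest of its group had -7.32 to 1.74. Age differences of Psmb5 to Psmb10, Psme1, Psme2 and Psmf1 are given below with and without old freely fed replicate 2. For other members the value without this animal is given only where so stated.

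The proteasome degrades proteins that carry ubiquitin chains. Its 20S core is a barrel of alpha and beta rings, in which Psmb5, Psmb6 and Psmb7 encode the catalytic subunits beta5, beta1 and beta2. The 19S cap, built from ATPases and non-ATPase subunits, binds and unfolds the substrates. In immune cells, and in other cells exposed to interferon gamma, Psmb8, Psmb9 and Psmb10 encode catalytic subunits that take the places of beta5, beta1 and beta2, and the resulting immunoproteasome yields peptides suited to MHC class I molecules. The PA28 activator, encoded by Psme1 and Psme2, is induced with them.

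The promoters of the 3 immunoproteasome genes and of their 3 constitutive counterparts are shown because the 3 immunoproteasome genes had the largest age estimates among the members, and their counterparts had estimates below 0. Sequences are from RefSeq on build GRCr8, 250 bases before and 50 after the annotated start of the gene, on the strand of the gene. Capitals mark matches to any of 4 motifs searched on both strands. They were GAAA followed by any 2 bases and GAAA, the core of the interferon-stimulated response element, TTCNNNGAA, the interferon-gamma activated site, TGACNNNGC, the core of the antioxidant response element, and CCAAT, the box bound by NF-Y. No match of a motif overlapped a match of another in these 6 windows.
Psmb8, chr20:4656982-4657281, minus strand: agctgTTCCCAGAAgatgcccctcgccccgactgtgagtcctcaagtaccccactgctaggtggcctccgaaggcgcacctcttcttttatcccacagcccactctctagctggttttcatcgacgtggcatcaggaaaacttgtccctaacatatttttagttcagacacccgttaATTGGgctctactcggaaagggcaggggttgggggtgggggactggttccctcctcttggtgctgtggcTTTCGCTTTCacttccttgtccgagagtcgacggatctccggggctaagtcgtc
Psmb9, chr20:4668750-4669049, plus strand: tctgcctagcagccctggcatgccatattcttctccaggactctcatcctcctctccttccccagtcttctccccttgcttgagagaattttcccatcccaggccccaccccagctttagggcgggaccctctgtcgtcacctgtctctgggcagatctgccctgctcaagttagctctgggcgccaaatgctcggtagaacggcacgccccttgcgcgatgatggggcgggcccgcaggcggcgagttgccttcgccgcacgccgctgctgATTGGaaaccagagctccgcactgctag
Psmb10, chr19:50743243-50743542, minus strand: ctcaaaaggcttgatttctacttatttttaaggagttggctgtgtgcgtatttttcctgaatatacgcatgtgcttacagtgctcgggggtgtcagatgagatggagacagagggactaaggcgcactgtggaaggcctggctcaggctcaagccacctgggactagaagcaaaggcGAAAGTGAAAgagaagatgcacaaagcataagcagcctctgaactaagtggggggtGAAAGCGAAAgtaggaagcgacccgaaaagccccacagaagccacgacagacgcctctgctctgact
Psmb5, chr15:32047330-32047629, minus strand: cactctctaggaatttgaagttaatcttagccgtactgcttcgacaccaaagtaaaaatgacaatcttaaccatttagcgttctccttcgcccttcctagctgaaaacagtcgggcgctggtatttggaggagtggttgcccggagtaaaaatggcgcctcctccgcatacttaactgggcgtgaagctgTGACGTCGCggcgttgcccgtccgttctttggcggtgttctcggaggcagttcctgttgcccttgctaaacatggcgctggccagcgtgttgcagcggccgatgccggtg
Psmb6, chr10:55737638-55737937, plus strand: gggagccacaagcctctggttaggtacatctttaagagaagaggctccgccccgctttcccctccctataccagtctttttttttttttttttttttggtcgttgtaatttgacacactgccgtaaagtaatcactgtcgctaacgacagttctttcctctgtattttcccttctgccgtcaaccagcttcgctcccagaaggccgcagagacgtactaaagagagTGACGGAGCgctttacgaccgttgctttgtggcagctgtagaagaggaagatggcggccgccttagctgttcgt
Psmb7, chr3:42827421-42827720, minus strand: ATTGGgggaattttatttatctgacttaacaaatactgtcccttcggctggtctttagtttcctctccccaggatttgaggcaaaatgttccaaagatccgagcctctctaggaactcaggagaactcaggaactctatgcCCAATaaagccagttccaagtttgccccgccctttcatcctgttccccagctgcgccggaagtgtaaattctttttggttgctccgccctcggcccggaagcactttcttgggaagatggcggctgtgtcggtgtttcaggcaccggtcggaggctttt

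The interferon-stimulated core lay once in the Psmb8 window and at 2 places in the Psmb10 window, and was not found among these letters in the other 4 windows. It lay in 7 of the 42 member promoters with a RefSeq entry (16.7%) and in 3.92% of all 33469 promoters of the same length. The gamma-activated site lay in Psmb8, in 4 of the 42 member promoters and in 8.87% of all promoters. The antioxidant core lay in Psmb5 and Psmb6, in 8 of the 42 and in 12.1% of all. The CCAAT box lay in 22 of the 42 (52.4%) and in 37.5% of all promoters, among them Psmb7 at 2 places, Psmb8 and Psmb9. These matches describe the letters and show no binding. On chromosome 20 the genes lie in the order Tap2, Psmb8, Tap1, Psmb9, so that 2 immunoproteasome genes alternate with the genes of the peptide transporter of the MHC class I pathway. The windows of Psmb9 and Tap1, on opposite strands, share 44 bases.

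Levels below are log2 signal minus the 75th percentile of the array, so that 0 is a signal equal to that percentile and a difference of 1 is a 2-fold change. Levels of different genes come from different probes and are not compared. No member passed the test in any of the 3 comparisons (limma on all 12 arrays, Benjamini-Hochberg adjusted p under 0.05 over 20425 features). The count was 0 of 46 for old freely fed against young rats, where 3.72% of all features passed (1.63% higher and 2.1% lower). It was 0 of 46 for old restricted against old freely fed rats, where 3.64% passed (1.62% higher and 2.02% lower), and 0 of 46 for old restricted against young rats, where 9.18% passed (3.19% higher and 5.99% lower). Before adjustment, p was under 0.05 for 5 higher and 12 lower members with age (37% against 24.6% of all features). The same count gave 3 higher and 1 lower with restriction (8.7% against 20.6%) and 0 higher and 4 lower in old restricted against young rats (8.7% against 26.1%). The smallest adjusted p was 0.0635, for Psmb5 with age, and that gene had 0.146 without old freely fed replicate 2.

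The test bounded most members closely. In each comparison, 43 of the 46 members had a 95% interval that lay wholly within 1.5-fold in either direction. The exceptions were Psmb8, Psmb9 and Psmb10 each time. A gene has the same standard error in every comparison, so this repeat is not separate evidence. For old restricted against young rats, the standard errors of these genes were 0.29, 0.22 and 0.21. Without old freely fed replicate 2, an animal outside that comparison, they were 0.12, 0.10 and 0.09. The median log2 difference of the 46 members was -0.04 with age, 0.03 with restriction and -0.02 for old restricted against young rats, beside -0.05, 0.02 and -0.01 over all features. The level of zero depended on the scaling. Among all features, old freely fed against young rats gave 332 higher and 428 lower calls, but 364 and 152 after quantile scaling, 370 and 145 after centring on the array median, and 287 and 124 after normexp background correction with quantile scaling. Old restricted against old freely fed rats gave 331 higher and 413 lower calls, but 580 and 325 after normexp correction. Old restricted against young rats gave 651 and 1223, but 827 and 880 after quantile scaling and 683 and 819 after normexp correction with quantile scaling.

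**Figure D1:**
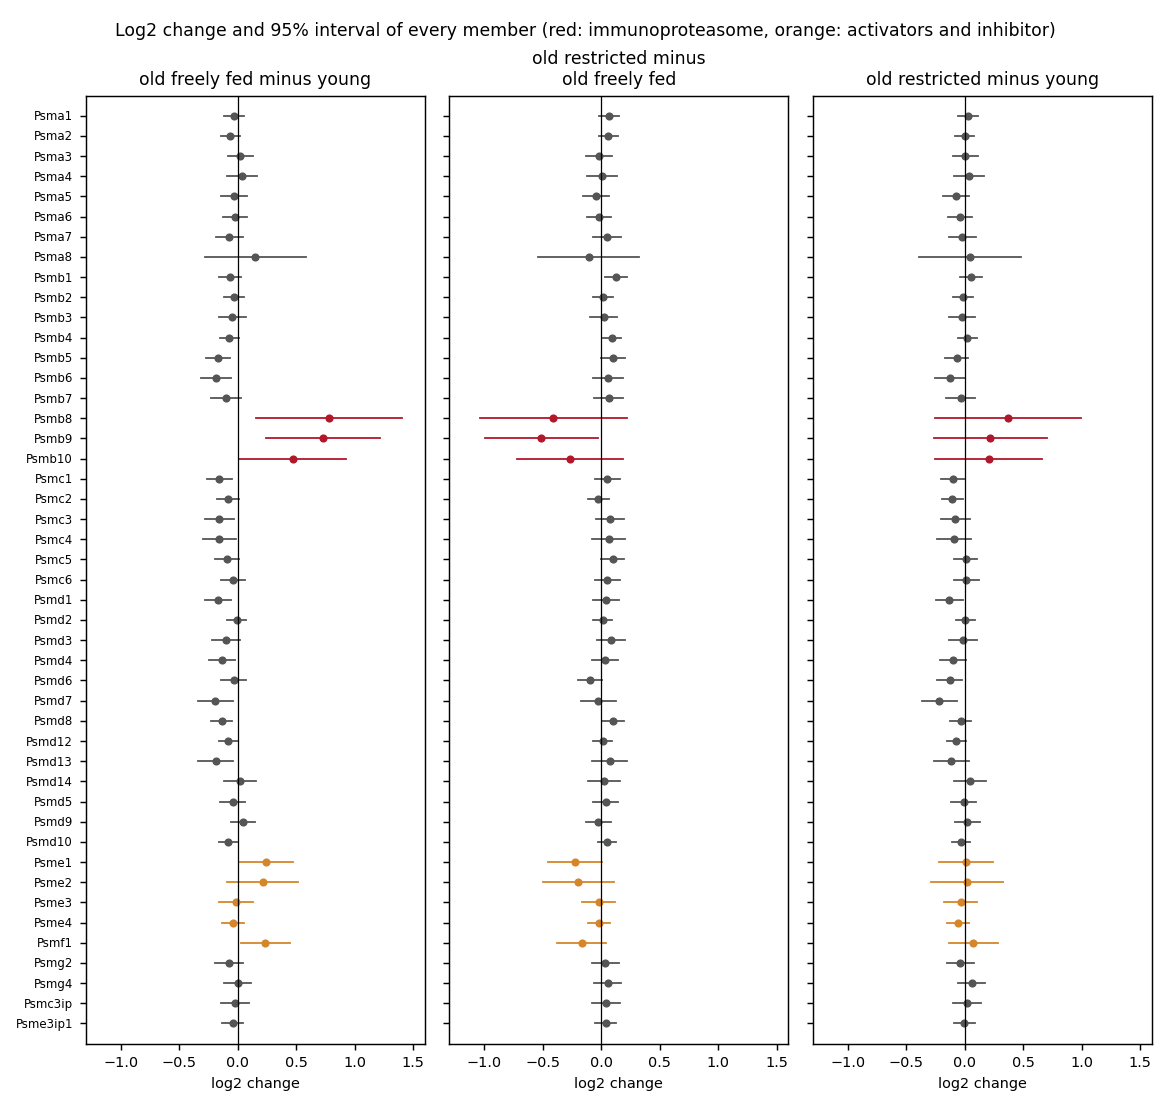
Estimated log2 difference (point) and 95% interval (line) of each of the 46 genes in the 3 comparisons, with the group named first minus the group named second and the members ordered by role. The intervals of Psmb8, Psmb9 and Psmb10 are the widest, and 43 of 46 intervals in each panel lie within 1.5-fold in either direction.

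The catalytic immunoproteasome genes had the largest estimated age differences of the 46 members, each above young rats, and none passed the test. Psmb8, whose product replaces beta5, had levels of 0.24, -0.08, 0.52 and -0.09 in old restricted rats 1 to 4. Its levels were 0.28, 1.64, 0.11 and 0.19 in old freely fed rats, and -0.37, -0.21, -0.27 and -0.05 in young rats. Every old freely fed value lay above every young value, and the old restricted values overlapped both. The estimate for old freely fed over young rats was 1.72-fold (log2 0.78, SE 0.29, 95% interval 1.11-fold to 2.65-fold), with a limma adjusted p of 0.124. Without old freely fed replicate 2 the estimate was 1.34-fold (log2 0.42) with a limma adjusted p of 0.140. The groups did not overlap then either.

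Psmb9, whose product replaces beta1, had levels of 1.42, 1.27, 1.72 and 1.23 in old restricted rats. It had 1.79, 2.76, 1.54 and 1.58 in old freely fed rats, and 1.16, 1.19, 1.13 and 1.28 in young rats. Old freely fed and young rats did not overlap, and the lowest old freely fed value was nearer the young range than to replicate 2. Old freely fed rats were at 1.66-fold the young level (log2 0.73, SE 0.22, interval 1.18-fold to 2.32-fold), with a limma adjusted p of 0.0805, and at 1.36-fold (log2 0.45) with an adjusted p of 0.0699 without replicate 2. Psmb10, whose product replaces beta2, had 2.55, 2.31, 2.75 and 2.35 in old restricted rats. It had 2.54, 3.54, 2.37 and 2.57 in old freely fed rats, against 2.23, 2.34, 2.19 and 2.38 in young rats. The lowest old freely fed value lay just below the highest young value, so these groups overlapped. They did not overlap after quantile scaling, median centring or normexp correction with quantile scaling. The estimate was 1.38-fold (log2 0.47, SE 0.21, limma adjusted p = 0.191), and 1.15-fold without replicate 2 (log2 0.21, adjusted p = 0.290).

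Between old restricted and old freely fed rats all 3 immunoproteasome estimates were below 0, and the groups overlapped for each. The log2 difference was -0.51 for Psmb9 (SE 0.22, limma adjusted p = 0.222), -0.41 for Psmb8 (SE 0.29, adjusted p = 0.444) and -0.26 for Psmb10 (SE 0.21, adjusted p = 0.498). Without old freely fed replicate 2 they were -0.23, -0.05 and -0.002. The restricted and freely fed old rats were compared through the same 4 old freely fed arrays as old and young rats, so replicate 2 enters both comparisons with opposite sign. Set against young rats, old restricted rats gave 0.37 for Psmb8, 0.22 for Psmb9 and 0.20 for Psmb10, with limma adjusted p-values of 0.444, 0.569 and 0.571. The test takes its spread from all 3 groups, so replicate 2 widens it here too. Without that animal the 3 estimates were the same, at limma adjusted p-values of 0.0799, 0.178 and 0.175.

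**Figure D2:**
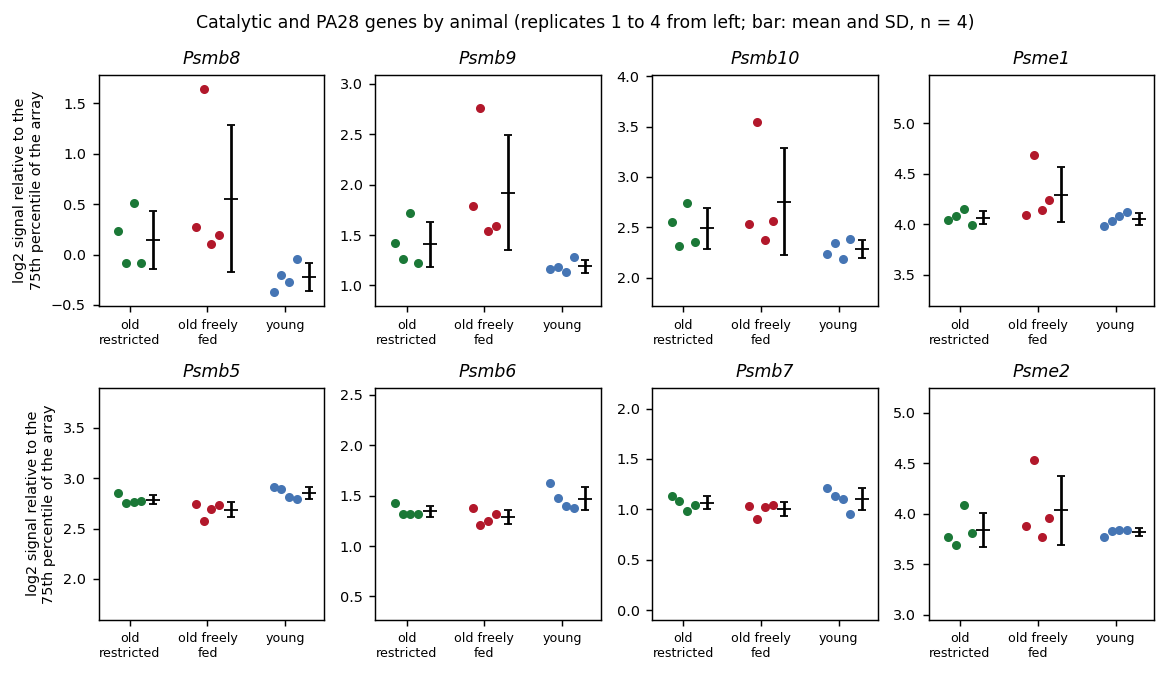
Level of 8 genes in every animal (points, replicates 1 to 4 from left) with the group mean and SD (bars, n = 4). The vertical axes are log2 signal relative to the 75th percentile of the array and differ in position, and old freely fed replicate 2 is the highest animal for Psmb8, Psmb9, Psmb10, Psme1 and Psme2 and the lowest of its group for Psmb5, Psmb6 and Psmb7.

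The constitutive catalytic genes had estimates below 0 with age, of small size, and none passed the test. Psmb5 had levels of 2.85, 2.75, 2.77 and 2.77 in old restricted rats. It had 2.75, 2.58, 2.69 and 2.73 in old freely fed rats, and 2.92, 2.90, 2.82 and 2.80 in young rats. All 4 old freely fed values lay below all 4 young values and also below all 4 old restricted values, by narrow margins. The log2 difference was -0.17 with age (SE 0.05, limma adjusted p = 0.0635), 0.10 with restriction (adjusted p = 0.264) and -0.07 for old restricted against young rats (adjusted p = 0.362). Without old freely fed replicate 2 it was -0.13 with age (limma adjusted p = 0.146) and 0.06 with restriction (adjusted p = 0.540).

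Psmb6 had 1.43, 1.31, 1.32 and 1.32 in old restricted rats. It had 1.37, 1.21, 1.25 and 1.31 in old freely fed rats and 1.63, 1.48, 1.39 and 1.38 in young rats, a range that began just above the highest old freely fed value. The age difference was -0.18 (SE 0.06, limma adjusted p = 0.0933), and -0.16 without old freely fed replicate 2 (adjusted p = 0.215). Psmb7 had 1.14, 1.09, 0.99 and 1.05 in old restricted rats. It had 1.04, 0.90, 1.03 and 1.04 in old freely fed rats and 1.21, 1.13, 1.10 and 0.95 in young rats, and all groups overlapped. Its age difference was -0.10 (SE 0.06, limma adjusted p = 0.315), and -0.06 without old freely fed replicate 2 (adjusted p = 0.582). The absence of overlap for Psmb5 and Psmb6 with age did not hold under every scaling: neither gene kept it after quantile scaling or centring on the array median, and Psmb6 also lost it with normexp correction.

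Each immunoproteasome gene was set against the gene whose product it replaces, as the level of the first minus that of the second on the same array. The mean over the 3 pairs was -0.40, -0.55, -0.03 and -0.55 in old restricted rats, -0.19, 1.09, -0.32 and -0.25 in old freely fed rats, and -0.91, -0.73, -0.75 and -0.51 in young rats. Its zero depends on the probes, so that only differences between groups are read. The group values were -0.38 ± 0.25 in old restricted, 0.08 ± 0.67 in old freely fed and -0.73 ± 0.17 in young rats (SD, n = 4 each). Old freely fed rats exceeded young rats by 0.81 without overlap, and by 0.47 without replicate 2, again without overlap. Old restricted rats differed from old freely fed rats by -0.47, or by -0.13 without replicate 2, and exceeded young rats by 0.34, with overlap in both comparisons. No test was made of this score, because its members were chosen with earlier results known.

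The pairs were not alike. Psmb9 minus Psmb6 was -0.01, -0.05, 0.40 and -0.09 in old restricted rats, 0.41, 1.55, 0.29 and 0.27 in old freely fed rats, and -0.47, -0.29, -0.26 and -0.10 in young rats. This pair separated young rats from both old groups without overlap. The margin to old restricted rats was very narrow, with -0.0912 in old restricted replicate 4 and -0.0997 in young replicate 4. Psmb8 minus Psmb5 separated old freely fed from young rats alone, with a difference of 0.95, or 0.55 without old freely fed replicate 2. Psmb10 minus Psmb7 overlapped in all 3 comparisons, with an age difference of 0.57, or 0.27 without that animal. Under quantile scaling and both normexp settings, the mean of the pairs moved by less than the SD between animals in every comparison. That SD is a loose bound, since it reached 0.67 in old freely fed rats, where replicate 2 stood apart. Median centring shifts all genes of an array alike, so it could not move this mean.

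Among the activators, Psme1 and Psme2 encode the alpha and beta subunits of PA28. Psme1 had 4.04, 4.08, 4.15 and 3.99 in old restricted rats, 4.09, 4.69, 4.14 and 4.24 in old freely fed rats, and 3.98, 4.03, 4.08 and 4.12 in young rats. Psme2 had 3.77, 3.69, 4.08 and 3.80 in old restricted rats, 3.88, 4.53, 3.77 and 3.96 in old freely fed rats, and 3.76, 3.83, 3.84 and 3.84 in young rats. For both genes old freely fed replicate 2 lay above every other animal, and the groups overlapped in all 3 comparisons. The age differences were 0.24 for Psme1 (SE 0.11, limma adjusted p = 0.187) and 0.21 for Psme2 (SE 0.14, adjusted p = 0.362), or 0.11 and 0.05 without that animal. After quantile scaling, old freely fed and young rats did not overlap for either gene. After normexp correction with quantile scaling they did not overlap for Psme1 but did for Psme2. After median centring, and after normexp correction alone, they overlapped for both genes.

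Psme3 encodes PA28 gamma, a nuclear activator that is not induced by interferon gamma. It had -1.25, -1.13, -1.45 and -1.19 in old restricted rats, -1.27, -1.25, -1.18 and -1.22 in old freely fed rats, and -1.12, -1.26, -1.23 and -1.26 in young rats. Its largest difference in the 3 comparisons was -0.04, for old restricted against young rats (SE 0.07, limma adjusted p = 0.761), and old freely fed replicate 2 lay within the range of its group. Psme4 encodes PA200, another nuclear activator, and its differences were -0.06 to -0.02. Psmf1 encodes PI31, named as an inhibitor of the 20S core. It had 0.95, 0.95, 1.02 and 0.96 in old restricted rats, 0.94, 1.50, 1.01 and 1.11 in old freely fed rats, and 0.86, 0.92, 0.97 and 0.86 in young rats. As for PA28, replicate 2 was the highest old freely fed animal, and the age difference was 0.24 with it and 0.12 without it (limma adjusted p = 0.156 and 0.235).

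**Figure D3:**
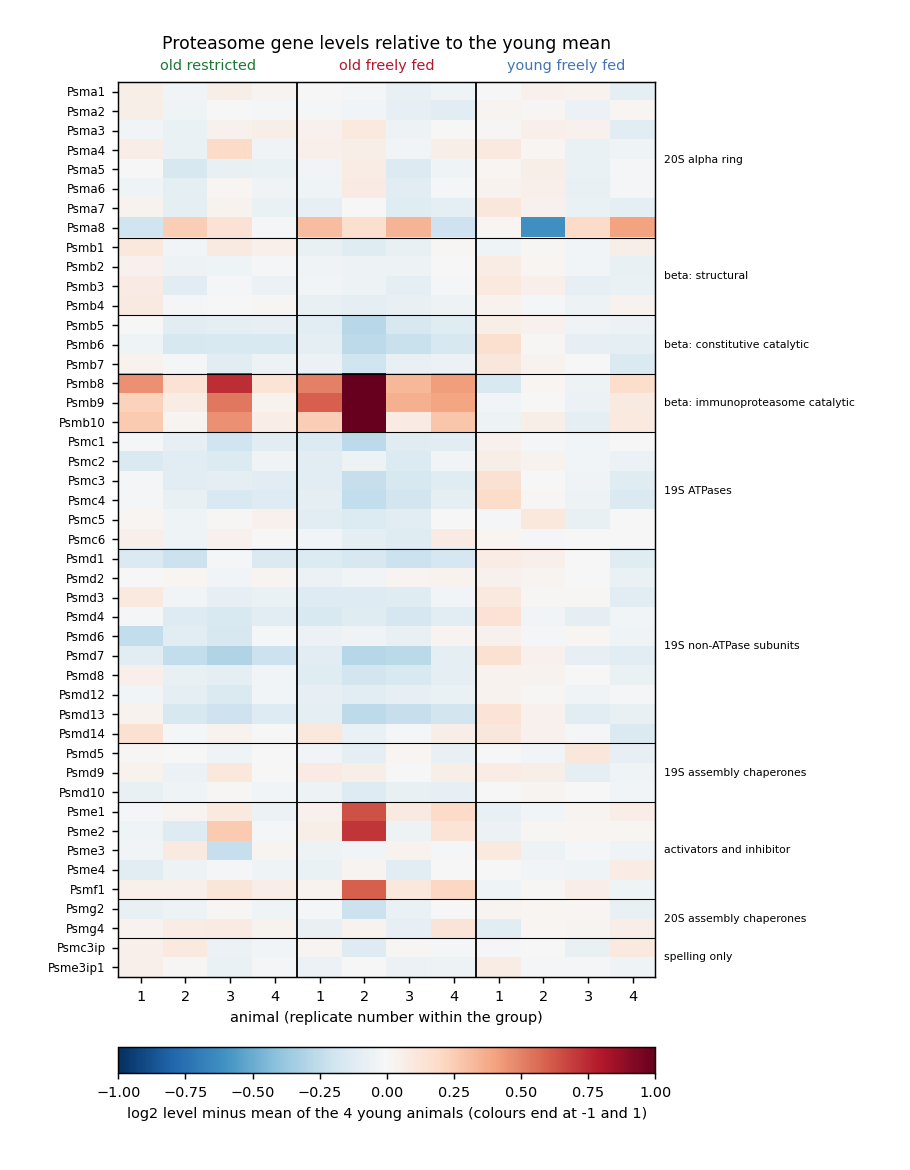
Level of each of the 46 genes (rows, by role) in each of the 12 animals (columns) minus the mean of the 4 young animals, in log2 units, with colours that end at -1 and 1. Colour stands out in the rows of Psmb8, Psmb9, Psmb10, Psme1, Psme2 and Psmf1, above all in old freely fed replicate 2, and in the dim gene Psma8.

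The rest of the 20S core differed little. The 8 alpha ring genes, whose products gate the barrel, had age differences of -0.07 to 0.15, with a median of -0.03 that became 0.03 after quantile scaling and 0.05 after normexp correction with quantile scaling. Psma8, the alpha subunit of testis in mammals, had a dim probe, and had both the highest of these values and the widest spread between animals of the 8. It had -4.19, -3.75, -3.84 and -4.00 in old restricted rats, -3.68, -3.83, -3.65 and -4.19 in old freely fed rats, and -3.97, -4.60, -3.80 and -3.59 in young rats. These groups overlapped throughout. Psma5 had the largest alpha ring difference in old restricted against young rats, -0.08 (SE 0.05, limma adjusted p = 0.369), from levels of 1.76, 1.61, 1.70 and 1.70 in old restricted and 1.79, 1.83, 1.70 and 1.76 in young rats.

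The 4 structural beta genes, Psmb1 to Psmb4, lack peptidase activity of their own. Their estimates for old restricted against old freely fed rats were all above 0, at 0.01 to 0.12. Psmb1 had 1.55, 1.42, 1.54 and 1.50 in old restricted rats, 1.37, 1.33, 1.37 and 1.46 in old freely fed rats, and 1.41, 1.46, 1.42 and 1.51 in young rats. Its difference with restriction was 0.12 (SE 0.04), and its limma adjusted p of 0.138 was the smallest of the 46 members in that comparison. Psmb4 had 3.76, 3.65, 3.67 and 3.68 in old restricted rats, 3.60, 3.58, 3.60 and 3.62 in old freely fed rats, and 3.70, 3.65, 3.62 and 3.71 in young rats. Its old restricted values lay just above its old freely fed values, with a difference of 0.09 (SE 0.04, limma adjusted p = 0.186). With age, the structural median of -0.06 became 0.01 after quantile scaling.

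The 19S genes had mostly negative age estimates, small in size, and none passed the test. All 6 ATPases, Psmc1 to Psmc6, which form the ring that unfolds substrates, were below 0 with age (median -0.12), as were 62.0% of all features, and they were below 0 in each of the 4 other scalings as well (medians -0.11 to -0.06), where 52.1% to 69.1% of all features were. Psmc3 had the largest age difference among them, -0.16 (SE 0.06), from levels of 1.50, 1.37, 1.44 and 1.48 in old freely fed and 1.76, 1.61, 1.57 and 1.48 in young rats. These groups overlapped slightly, and its old restricted values were 1.59, 1.50, 1.50 and 1.49. Psmc1 had 1.47, 1.35, 1.49 and 1.50 in old freely fed rats, all below the 1.65, 1.59, 1.58 and 1.61 of young rats, with a difference of -0.16 (SE 0.05, limma adjusted p = 0.0799). Without old freely fed replicate 2 the Psmc1 difference was -0.12 (limma adjusted p = 0.188). With restriction the largest ATPase difference was that of Psmc5, 0.10 (SE 0.05, limma adjusted p = 0.251), from 3.94, 3.88, 3.93 and 3.96 in old restricted and 3.81, 3.79, 3.81 and 3.92 in old freely fed rats. Psmc2 had 3.30, 3.33, 3.30 and 3.40 in old restricted and 3.498, 3.474, 3.410 and 3.383 in young rats, a difference of -0.11 (SE 0.04, adjusted p = 0.125).

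Of the 10 non-ATPase subunits measured, 9 had an age estimate below 0 (median -0.12), and 7 or 8 did under the other scalings (medians -0.09 to -0.06). Psmd7, a scaffold of the lid that partners the deubiquitinase Psmd14, had 1.55, 1.42, 1.36 and 1.45 in old restricted rats. It had 1.55, 1.38, 1.40 and 1.57 in old freely fed rats and 1.82, 1.71, 1.58 and 1.55 in young rats. Old restricted values lay at or just below the lowest young value and old freely fed values overlapped the young range. The difference was -0.22 for old restricted against young rats (SE 0.07, limma adjusted p = 0.0681) and -0.19 with age (SE 0.07, adjusted p = 0.120). Psmd1, the large scaffold of the base, had 3.82, 3.79, 3.74 and 3.78 in old freely fed rats, below all of the 4.03, 4.00, 3.95 and 3.83 of young rats, with a difference of -0.17 (SE 0.05, limma adjusted p = 0.0792). Without old freely fed replicate 2 the Psmd1 difference was still -0.17, at a limma adjusted p of 0.153. Psmd8 had 0.76, 0.64, 0.63 and 0.69 in old restricted rats, all above the 0.59, 0.53, 0.57 and 0.62 of old freely fed rats, by 0.10 (SE 0.04).

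The assembly chaperones are made to build the particle and are not part of it. Psmd10, known as gankyrin, had 0.27, 0.30, 0.36 and 0.32 in old restricted rats, 0.29, 0.21, 0.27 and 0.26 in old freely fed rats, and 0.34, 0.37, 0.34 and 0.31 in young rats. Old freely fed values lay just below young values, by 0.08 (SE 0.03, limma adjusted p = 0.164). The other 2 19S chaperones, Psmd5 and Psmd9, had age differences of -0.04 and 0.05. Of the 20S chaperones, Psmg2 had -2.10, -2.08, -2.01 and -2.07 in old restricted, -2.05, -2.24, -2.09 and -2.02 in old freely fed and -1.999, -2.006, -2.007 and -2.101 in young rats. Psmg4 had 2.02, 2.06, 2.07 and 2.02 in old restricted, 1.91, 2.02, 1.91 and 2.11 in old freely fed and 1.87, 2.01, 2.01 and 2.05 in young rats. Differences of Psmg2 and Psmg4 were -0.07 to 0.06, and all groups overlapped. The 2 genes of the spelling alone, Psmc3ip and Psme3ip1, had differences of -0.04 to 0.04.

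Members whose groups did not overlap (of all features, 15.1% with age, 14.7% with restriction and 18% for old restricted against young rats) were counted. With age 2 were higher, Psmb8 and Psmb9 (4.35% of members, against 5.69% of all features), and 8 were lower, Psmb5, Psmb6, Psmc1, Psmd1, Psmd4, Psmd8, Psmd10 and Psmd12 (17.4% against 9.37%). Members are bright, 31 of 46 lying among the brightest 25% of features, where 12.9% of features were lower without overlap. The count of lower members depended on the scaling, at 2 after quantile scaling, 0 after median centring, 6 after normexp correction and 5 after normexp correction with quantile scaling. The count of higher members was 5, 3, 3 and 5 in the same settings, and Psmb8 and Psmb9 were among them each time. Old restricted against old freely fed rats gave 3 higher members, Psmb4, Psmb5 and Psmd8 (8.64% of all features), and 0 lower (6.05%), and old restricted against young rats gave 0 higher (7.16%) and 1 lower, Psmd7 (10.8%). With restriction the higher count was 2 after quantile scaling and 0 in the 3 other scalings. Against young rats, old restricted rats gave 4 higher members (Psmd2, Psme1, Psmf1 and Psmg4) after normexp correction with quantile scaling and 0 or 1 in the other settings, and Psmd7 overlapped after quantile scaling and both normexp settings.

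Animals of 1 group were close to each other for most members. The pooled SD within groups had a median of 0.07 over the 46 members, against 0.125 over all features and 0.0874 over the brightest 25%, and 39 of 46 members were below the median of all features. The 7 others were Psmb8 at 0.46, Psmb9 at 0.36, Psmb10 at 0.33, Psma8 at 0.31, Psme2 at 0.22, Psme1 at 0.16 and Psmf1 at 0.15. Apart from the dim Psma8, these are the immunoproteasome genes, PA28 and PI31.

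**Figure D4:**
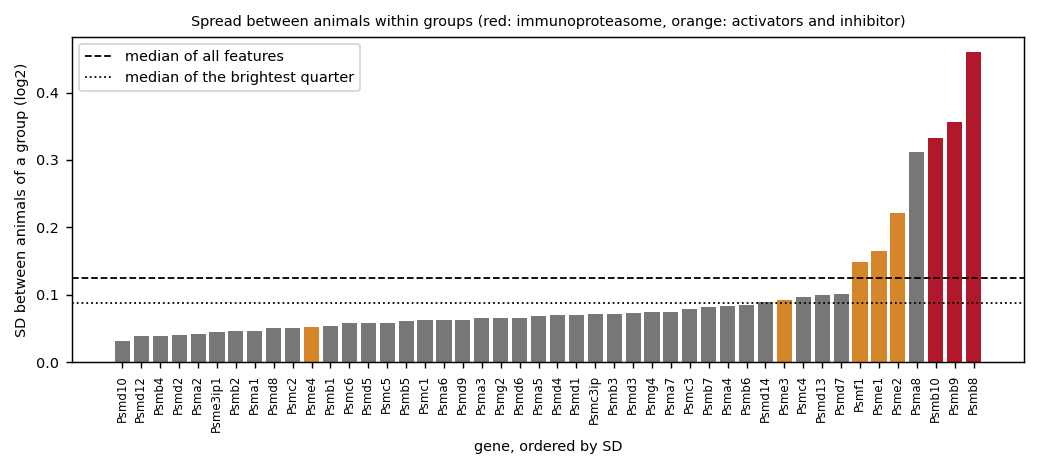
Pooled SD of the log2 level between animals of a group (bars) for each of the 46 genes, ordered from smallest to largest. The dashed line marks the median of all features, 0.125, the dotted line that of the brightest 25%, 0.0874, and the 3 immunoproteasome genes have the largest SD.

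A pair of animals, chosen after their values were seen, stood out for these genes. Old freely fed replicate 2 exceeded the mean of the other 3 old freely fed rats by over 0.3 for 6 of 46 members. They were Psmb8 (by 1.45, or 2.74-fold), Psmb9 (1.12), Psmb10 (1.05), Psme2 (0.66), Psme1 (0.53) and Psmf1 (0.48), and no member lay over 0.3 below. In the same animal Psmb5, Psmb6 and Psmb7 were the lowest of their group, at -0.15, -0.10 and -0.13 from the mean of the other 3. This was not particular to them, since the animal was the lowest of its group for 18 of 46 members and the highest for 13. Psmg2, at -0.18, and Psmc1, at -0.14, had gaps of like size. Old restricted replicate 3 exceeded the mean of the other 3 old restricted rats by over 0.3 for 4 members, Psmb8 (0.49), Psmb9 (0.41), Psmb10 (0.34) and Psme2 (0.33).

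Antigen processing was also represented among the genes high in the same animals. Tap1, a subunit of the peptide transporter, was at -1.41 in old freely fed replicate 2 against -3.06 to -2.67 in the other 3, and at -2.57 in old restricted replicate 3 against -3.20 to -2.99. Of the 16 MHC class I genes tested (of 21 listed), 14 had age estimates above 0, with a median of 0.39. With age 9 were higher without overlap, as were 5.69% of all features. With restriction 15 of 16 were below 0 (median -0.24). Without old freely fed replicate 2 the median was 0.18 with age, where 14 of 16 were above 0. It was -0.04 with restriction, where 11 of 16 were below 0. None of the 16 passed the test in any comparison with all animals. RT1-A2, a class I heavy chain gene, had 0.85, 0.75, 0.98 and 0.73 in old restricted rats, 1.03, 1.94, 0.92 and 0.86 in old freely fed rats, and 0.52, 0.52, 0.53 and 0.64 in young rats, with an age difference of 0.63 (SE 0.19, limma adjusted p = 0.0755). Without replicate 2 the difference was 0.38 (SE 0.07) and passed, at a limma adjusted p of 0.0249. Class I genes are near-identical to each other, so their probes cannot be taken to separate them.

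Of the 14 interferon gamma pathway genes tested (of 17 listed), none passed with age, with a median of 0.38, and the 4 with the smallest adjusted p were Cxcl9 (1.74), Cd274 (0.72), Gbp2 (1.02) and Gbp5 (1.13), at limma adjusted p-values of 0.105 to 0.142. Without old freely fed replicate 2 these were 1.10, 0.41, 0.53 and 0.60, none passed, and the median of the 14 was 0.16. With restriction the median of the 14 was -0.48, or -0.20 without that animal. Estimates were above 0 for 3 of the 14, and Jak2 alone passed the test. Jak2, a kinase of the interferon gamma receptor, rose in old restricted rats, with -0.99, -0.91, -1.07 and -0.92 there, -1.33, -1.19, -1.35 and -1.35 in old freely fed rats, and -1.21, -1.31, -1.30 and -1.24 in young rats. It exceeded old freely fed rats by 0.34 (SE 0.05, limma adjusted p = 0.00793) and young rats by 0.29 (SE 0.05, adjusted p = 0.00915), and passed under all 23 alternatives.

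**Figure D5:**
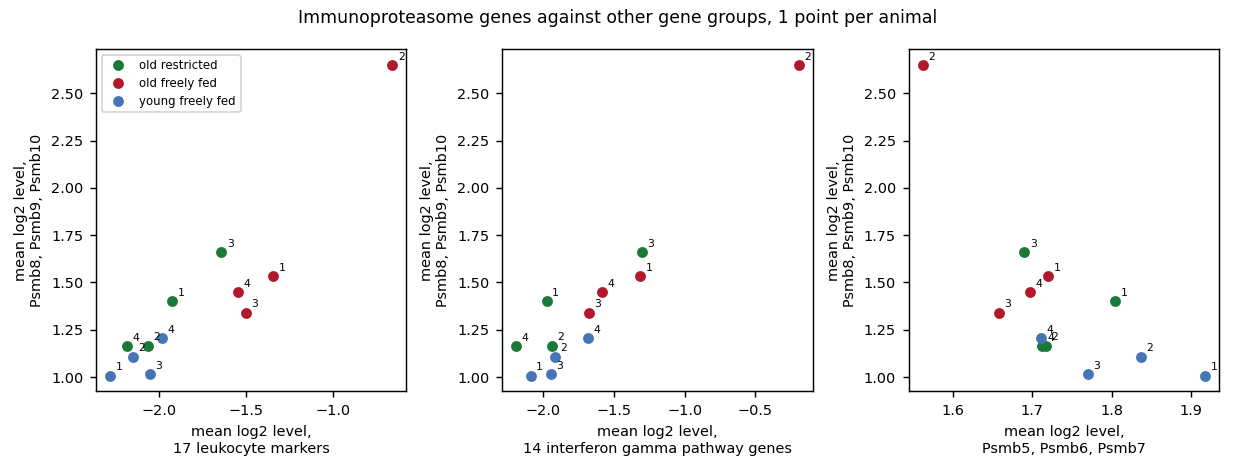
Mean log2 level of Psmb8, Psmb9 and Psmb10 in each of the 12 animals (points, numbered by replicate) against the mean level of 17 leukocyte markers, of 14 interferon gamma pathway genes and of Psmb5, Psmb6 and Psmb7. Old freely fed replicate 2 lies at the top of all 3 panels, at the right of the leukocyte and interferon panels and at the left of the constitutive panel.

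The summed signal of 17 leukocyte markers tested (of 20 listed), in multiples of the 75th percentile of the array, was 12.4 to 16.2 in old restricted rats, 16.8 to 33.7 in old freely fed rats and 11.6 to 13.8 in young rats. Old freely fed replicate 2, at 33.7, and old restricted replicate 3, at 16.2, were the highest of their groups. With age, 3 of 4 general leukocyte markers, 2 of 8 T and NK cell markers and 0 of 4 macrophage markers rose. With restriction, Cd53, Coro1a and Cd3d fell, in 12, 8 and 21 of 23 alternatives. Cd3d, a subunit of the T cell receptor complex, differed from the others in old freely fed replicate 2, where it was the lowest of its group at -1.002 against -0.75 to -0.64. Of these calls with age, Cd2 and Cd3d passed under all 23 alternatives, and Ptprc and Coro1a under 11 of 23. Of 5 smooth muscle markers, all had age estimates below 0 (median -0.39), and Myh11 fell by 0.25 (SE 0.05, limma adjusted p = 0.0356), a call held in 11 of 23 alternatives and lost without old freely fed replicate 2, 3 or 4. The mean level of these 5 markers was 2.98 in old freely fed replicate 4 against 4.51 to 4.94 in the other 3. The part of immune or muscle cells in the proteasome values was not tested.

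Partners of the proteasome in the ubiquitin pathway differed little. Of 22 tested (of 28 listed), 1 rose and 0 fell with age, 0 passed with restriction (limma, where 2 were higher and 0 lower by unadjusted p under 0.05), and 1 rose and 1 fell in old restricted against young rats. Nfe2l2, the regulator of antioxidant genes known as NRF2, had 2.75, 2.53, 2.70 and 2.62 in old restricted rats, 2.63, 2.61, 2.73 and 2.77 in old freely fed rats, and 2.44, 2.41, 2.51 and 2.40 in young rats. It exceeded young rats by 0.24 in old freely fed rats (SE 0.05, limma adjusted p = 0.0375) and by 0.21 in old restricted rats (SE 0.05, adjusted p = 0.0360), and passed under 14 of 23 alternatives in each. Nfe2l1, known as NRF1, activates proteasome subunit genes when proteasome activity is short. It had -1.61, -1.48, -1.49 and -1.38 in old restricted rats, -1.30, -1.37, -1.41 and -1.33 in old freely fed rats, and -1.05, -1.25, -1.25 and -1.35 in young rats. It fell by 0.26 in old restricted against young rats (SE 0.07, limma adjusted p = 0.0337), a call lost under each of the 4 other scalings and held in 11 of 23 alternatives.

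The 4 genes with a further probe above background gave unequal age estimates by probe. The other probe of Psmf1 gave an age difference of 0.16 beside 0.24 for the brightest, that of Psmd9 -0.04 beside 0.05, that of Psmg4 -0.04 beside 0.00 and that of Psme4 -0.22 beside -0.04. None of these 8 estimates passed the test.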

How the data were processed

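Total RNA was hybridised to 1-colour Agilent rat arrays, 1 animal per array, and read with Agilent Feature Extraction 10.7 per the submitters' processing notes. The deposited values are processed signal intensity per spot, background-subtracted on a linear scale per the file headers, and the deposited series table equalled them at a relative tolerance of 1e-06. The headers name build rn4, of which no coordinates were used.

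Control spots were left out, which left 58717 spots and 30367 probes, and spots of a probe were averaged. Each array's log2 signal was taken relative to its 75th percentile. Probes were kept when well above background on all 4 arrays of a group, and the brightest stood for a gene. Of the probes, 17998 took a symbol through their accession from the RefSeq table of assembly GRCr8. No non-control spot was saturated. The 75th percentile signal was 4123 to 4697 in old restricted, 4646 to 4892 in old freely fed and 3993 to 4837 in young rats. The number of arrays limits the precision.

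Linear models with empirical Bayes variances (limma 3.58, R 4.3, brightness trend) were fitted to all 12 arrays with 3 contrasts, and p-values were Benjamini-Hochberg adjusted over 20425 features. Alternatives changed the scaling, background correction, filter, probe choice, variance trend and samples, and left out each animal. The normexp alternative used the median spot signal, as the files hold no mean signal. Genes named were the member with the largest change in each role per comparison, the catalytic pairs and the activators, with others named for a group or count that was described. The members and all gene lists were chosen with earlier results of these data known. The procedure was tested on simulated data. Some genes of the lists are not reported here.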

Additional observations from a re-analysis of the deposited data

Results flagged for a closer look

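Among 150 checks of a member or a pair score in 1 group of 4 animals, 14 held an animal whose gap to the nearest other animal passed Dixon's 95% critical value, where chance gives about 7.5 (5% of groups). The pair scores are made of members that were checked too, so the 150 checks are not separate and the 2 counts are not strictly comparable. Of the 14, 8 were in old freely fed replicate 2, where 4 were members and the rest pair scores. In that animal Psmb8 was at 1.64 against 0.11 to 0.28 in the other 3, Psmb10 at 3.54 against 2.37 to 2.57, Psmb7 at 0.90 against 1.03 to 1.04, and Psme3ip1 at -0.64 against -0.71 to -0.70. The pair scores there were -0.93 against -2.59 to -2.47 for Psmb8 minus Psmb5, 1.55 against 0.27 to 0.41 for Psmb9 minus Psmb6, and 2.64 against 1.35 to 1.52 for Psmb10 minus Psmb7. Their mean was 1.09 against -0.32 to -0.19.

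The other 6 were small gaps in tight groups. Old restricted replicate 1 had Psmb6 at 1.43 against 1.31 to 1.32 and Psmc3 at 1.59 against 1.49 to 1.51. Psma4 was at 2.07 in old freely fed replicate 3 against 2.15 to 2.16, and Psmd3 at -0.72 in old freely fed replicate 4 against -0.82 to -0.81. Psme2 was at 3.76 in young replicate 1 against 3.83 to 3.84, and Psmg2 at -2.10 in young replicate 4 against -2.007 to -1.999.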

How the results depend on the processing

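With 4 animals a group, slide confounded with restriction and array row with age, small differences cannot be assigned. Members called with age numbered 3 of 46 (Psmb5, Psmc1 and Psmd8, all lower) with no filter on dim probes, where Psmb5 reached a limma adjusted p of 0.0328. That setting tested 26903 features, of which 13.3% passed. The count was 0 to 1 when an animal was left out (Psmd1, without young replicate 4, where 2.60% of all features passed). With restriction none passed in any alternative. In old restricted against young rats the count was 1 with the replicate number as a block (Psmd7) and 0 to 1 when an animal was left out (Psmd1 without young replicate 4, Psmd6 without old restricted replicate 4). Of all features, 8.83%, 8.08% and 6.74% passed in these 3 settings. Same-numbered animals did not deviate together (r from -0.19 to 0.095), so the numbers were not taken as pairs. Among all features, 760 passed with age, against 411 with normexp correction and quantile scaling, 3568 with no filter, 440 with no trend, 94 in a fit of those groups alone, 498 with the replicate block, and 121 (without young replicate 2) to 927 when an animal was left out. With restriction, 744 passed, against 478 in a fit of those groups alone, 498 with the block and 268 (without old restricted replicate 2) to 848 when an animal was left out. In old restricted against young rats, 1874 passed, against 3259 with no filter, 1804 with the block and 737 (without old restricted replicate 3) to 2089. The fits without an animal assume the same spread in all groups. Signs turned for estimates near 0. With age, Psme3 was 0.0073 after quantile scaling, 0.014 after median centring and -0.031 to 0.019 when an animal was left out (above 0 without young replicate 1). With restriction, Psme3 was -0.065 to 0.043 when an animal was left out (above 0 without old restricted replicate 3). In old restricted against young rats, Psmb5 was 0.015 with normexp correction and quantile scaling, and Psme1 was -0.0036 with normexp correction. There, leaving out an animal gave -0.084 to 0.0010 for Psmb7, -0.014 to 0.038 for Psme1, -0.064 to 0.068 for Psme2 and -0.079 to 0.029 for Psme3, and the signs turned without young replicate 1 or old restricted replicate 3. The cause was not tested.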
